A study of Mus musculus with 6 samples.

Results

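The auxiliary alpha2delta and beta subunits of voltage-gated calcium channels were examined in lumbar dorsal root ganglia of mouse embryos at E12.5. The 8 genes, Cacna2d1 to Cacna2d4 and Cacnb1 to Cacnb4, were taken by symbol from a table of 24264 genes, and all 8 were listed in it. The miR_CKO embryos carried Wnt1-Cre and were flox/flox for the miR-183-96-182 cluster, a design that removes the cluster in descendants of the neural crest, which include the sensory neurons and the glia of the ganglion. The miR_CKO group and the control group had 3 libraries each, from embryos of the same mixed C57/Bl6 and 129/SvEv background. Controls 1 and 3 were titled Wnt-Cre and control 2 WT, so that by title the Cre was not shared by all controls. The sources used here do not say how many embryos went into a library, and the p-values measure only the spread between these libraries. Polyadenylated RNA was sequenced, and levels are given in RPKM, reads per kilobase of transcript and per M mapped reads (M, mega).

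A voltage-gated calcium channel is built around a pore-forming alpha1 subunit. The cytoplasmic beta subunit binds the pore and brings it to the cell surface, and the extracellular, membrane-anchored alpha2delta subunit raises the number of channels at the membrane and at presynaptic terminals. In sensory neurons these channels trigger transmitter release. The alpha2delta-1 and alpha2delta-2 proteins are the binding sites of the gabapentinoid pain drugs, and Cacna2d1 and Cacna2d2 are known as targets of the miR-183 cluster in adult ganglia. The comparison asks whether messages for these subunits differed when the cluster was deleted in the embryo.

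The 3 mature microRNAs of the cluster are shown because their seeds, bases 2 to 8, define the sites looked for in the subunit messages. The seed is in capitals, and the sequences are those of RefSeq on GRCm38.p6, minus strand of chromosome 6.
miR-183 (chr6:30169711-30169732): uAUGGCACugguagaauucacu
miR-96 (chr6:30169506-30169528): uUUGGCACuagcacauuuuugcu
miR-182 (chr6:30165962-30165986): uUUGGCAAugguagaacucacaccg
The 7-base sites paired to the whole seed are GTGCCAT for miR-183, GTGCCAA for miR-96 and TTGCCAA for miR-182. A site of the 8mer kind adds an A after it, and a site of the 7mer-A1 kind is the last 7 bases of that 8mer, TGCCATA for miR-183 and TGCCAAA for both miR-96 and miR-182. Sites were read on the message strand, in the longest annotated 3 prime UTR of each gene in GENCODE M21 (mm10), and overlapping matches were counted as 1 place.

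Among the 8 genes, 5 held at least 1 such place and 3 held none, while 31.0% of the 18219 genes of the table with an annotated UTR held at least 1. Cacna2d2, which encodes alpha2delta-2 and lies on chromosome 9, had 4 places in a UTR of 1879 bases, and all 5 of its coding transcripts carried them. They are printed because they include the only 8mer among the alpha2delta genes; the match is in capitals and the lines run from the stop codon on, plus strand.
miR-183 7mer (chr9:107527628-107527634): accccaaagtaagGTGCCATggtgtttgg
shared miR-96 and miR-182 7mer-A1 (chr9:107527736-107527742): ccactagtactgaTGCCAAAccaggcctc
miR-183 7mer-A1 (chr9:107527998-107528004): cagtttagacacaTGCCATAtacacttgg
miR-96 8mer (chr9:107528226-107528233): tgaatgtcaaaccGTGCCAAAtgctggggg
The place of the miR-96 8mer also holds a miR-182 7mer-A1, at chr9:107528227-107528233. Of all genes of the table with a UTR between 0.8 and 1.25 times the length of the Cacna2d2 UTR, 42.5% held at least 1 place.

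Cacna2d1, which encodes alpha2delta-1 and lies on the plus strand of chromosome 5, also had 4 places, in a UTR of 3837 bases; 67.8% of UTRs of like length held at least 1. None of them was an 8mer. The first was in 7 of its 8 coding transcripts and the other 3 in 2 of them, since the other annotated UTRs are shorter.
shared 7mer-A1 (chr5:16370713-16370719): aaattccaagcccTGCCAAAacatgagcc
shared 7mer-A1 (chr5:16371284-16371290): agaatgacttctcTGCCAAAaacaaaaca
miR-182 7mer (chr5:16371555-16371561): taatgaacttggcTTGCCAAgggtctttt
shared 7mer-A1 (chr5:16373463-16373469): caaccagcattacTGCCAAAcaccaagcg

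In the beta family, Cacnb4 on chromosome 2 had 7 places in a UTR of 6169 bases, 3 of them 8mers, and 81.0% of UTRs of like length held at least 1. Cacnb1 on chromosome 11 had 2 places, both miR-96 7mers, in 1 of its 4 coding transcripts, where the share at like length was 33.2%. Both are printed because Cacnb1 is the member with the smallest p below. The minus strand was read.
miR-96 7mer (chr11:98001776-98001782): gagagagccgattGTGCCAAcgaggactg
miR-96 7mer (chr11:98001701-98001707): ctcgccacctcctGTGCCAAtgttgcccc
Cacnb2 had 1 shared 7mer-A1, in 1 of 4 coding transcripts, and 41.7% of UTRs of like length held at least 1 place. Cacna2d3, Cacna2d4 and Cacnb3 held no match in UTRs of 322, 2272 and 958 bases, where 8.38%, 50.0% and 25.5% of UTRs of like length held at least 1. A match says only that these letters are in the annotated UTR.

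**Figure D1:**
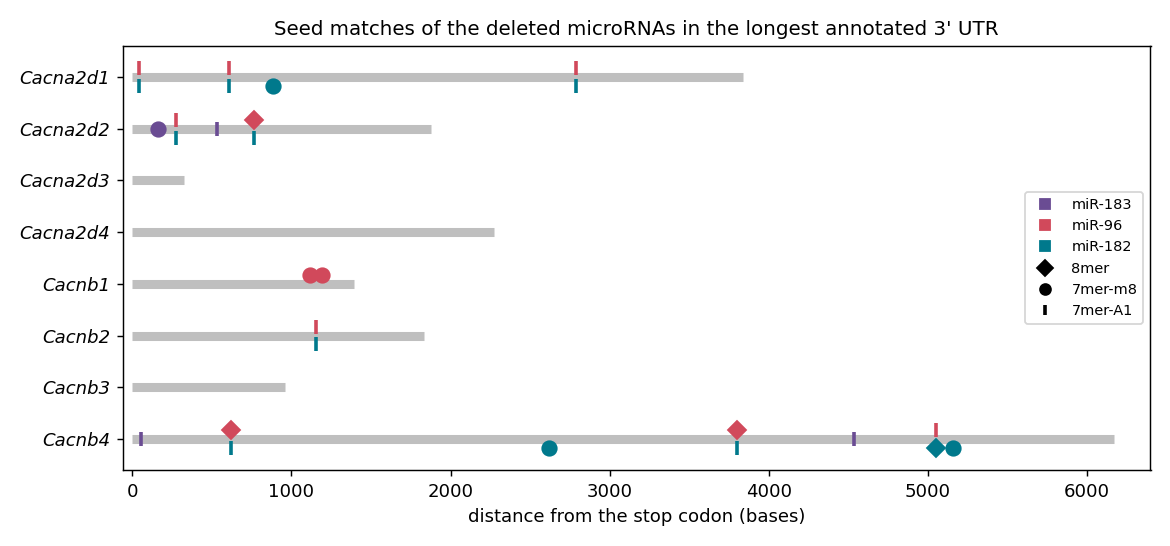
Seed matches of the 3 microRNAs along the longest annotated 3 prime UTR of each gene, as distance from the stop codon in bases; grey bars are the UTRs to scale, and symbols give the kind of match. Cacna2d1 and Cacna2d2 have 4 places each, Cacnb4 has 7, and Cacna2d3, Cacna2d4 and Cacnb3 have none.

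The auxiliary subunits differed widely in level in the embryonic ganglia. Cacnb3, the main neuronal beta subunit of many N-type channels, had the highest level per length of the 8 genes in all 6 libraries. Its level was 67.5, 58.8 and 48.5 RPKM in miR_CKO 1 to 3, against 52.7, 47.3 and 58.4 RPKM in controls 1 to 3. The groups overlapped, and miR_CKO 3 lay below controls 1 and 3. Behind these values stood 3117 to 4687 reads per library, as recovered from the deposited values.

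Cacna2d1 was the highest alpha2delta gene. It was at 29.7, 19.5 and 19.0 RPKM in miR_CKO 1 to 3, against 30.1, 20.4 and 30.2 RPKM in controls 1 to 3. The libraries lay near 30 or near 20 RPKM, with both groups at each level: miR_CKO 1 and controls 1 and 3 were high, and miR_CKO 2, miR_CKO 3 and control 2 were low. Reads per library ran from 2885 to 4863. The list of 5 sympathetic neuron markers had the same split, with summed levels of 32.1, 10.9 and 9.91 RPKM in miR_CKO 1 to 3, against 23.0, 9.24 and 37.8 RPKM in controls 1 to 3. Nearly all of this was Th, the rate-limiting enzyme of catecholamine synthesis, which some sensory neurons also express. The defining gene Dbh, which encodes the enzyme that makes noradrenaline, was at 0.158 RPKM or less throughout, and none of the 5 was at 0 in every library. The part of these cells in the Cacna2d1 values was not tested.

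Cacna2d2 was at 29.6, 16.7 and 17.9 RPKM in miR_CKO 1 to 3, against 16.7, 9.73 and 19.2 RPKM in controls 1 to 3. The highest library was miR_CKO 1 and the lowest control 2, and the other 4 lay close together, with control 3 above 2 of the 3 miR_CKO libraries. Cacnb1, known as the beta subunit of the skeletal muscle channel and expressed in neurons too, was at 14.0, 10.1 and 9.80 RPKM in miR_CKO 1 to 3, against 6.58, 6.48 and 9.90 RPKM in controls 1 to 3. Here control 3 alone reached the range of the miR_CKO libraries, by less than 0.1 RPKM at the lower end.

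The remaining genes were lower. Cacna2d3, whose protein alpha2delta-3 is needed for heat nociception in flies and mice, was at 2.62, 2.26 and 4.16 RPKM in miR_CKO 1 to 3, against 1.66, 1.37 and 3.43 RPKM in controls 1 to 3. The highest values were those of miR_CKO 3 and control 3, and the groups overlapped. The list of 7 spinal cord markers, of which Mnx1 was at 0 in all libraries, was highest in miR_CKO 3 too, with summed levels of 3.04, 0.802 and 13.5 RPKM in miR_CKO 1 to 3, against 1.11, 2.49 and 3.08 RPKM in controls 1 to 3. Nearly all of this in miR_CKO 3 was Lhx5, Pax2 and Pax6, at 5.23, 4.66 and 3.59 RPKM. Olig2 went the other way, at 0.896 RPKM in miR_CKO 1 and 0.0197 RPKM in miR_CKO 3. In control 3, where Cacna2d3 was also high, the list was near its level in miR_CKO 1. The part of such cells in the Cacna2d3 values was not tested. Cacnb4, a beta subunit best known from the brain, was at 1.30, 1.04 and 1.33 RPKM in miR_CKO 1 to 3, against 0.948, 0.780 and 1.07 RPKM in controls 1 to 3. Only control 3 entered the miR_CKO range. Cacnb4 entered the test through 4 libraries at 1 RPKM or more, all 3 of miR_CKO and control 3.

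Cacnb2, a beta subunit prominent in heart, was at 0.275, 0.207 and 0.132 RPKM in miR_CKO 1 to 3, against 0.190, 0.170 and 0.386 RPKM in controls 1 to 3. Its reads summed to 59 in miR_CKO (exact Poisson 95% interval 44.9 to 76.1) and 70 in control (54.6 to 88.4), and these intervals, which cover counting error only, overlap. Cacna2d4, an alpha2delta of retinal photoreceptors, was listed at 0 in miR_CKO 2, miR_CKO 3 and control 2, and at 0.0263 RPKM or less elsewhere. That was 1 read in all of miR_CKO and 4 reads in all of control, so its level was at the limit of detection in both groups. Both genes lay under 1 RPKM in all 6 libraries and were not tested with the other genes; their exact permutation p-values for log2(RPKM + 1), two-sided, were 0.7 for Cacnb2 and 0.4 for Cacna2d4, where 0.1 is the smallest that 3 against 3 allows.

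The order of levels per length was Cacnb3, Cacna2d1, Cacna2d2, Cacnb1, Cacna2d3, Cacnb4, Cacnb2 and Cacna2d4 in each of the 6 libraries. The ranges over libraries of Cacna2d1 and Cacna2d2 overlapped, as did those of Cacna2d2 and Cacnb1, and all other neighbours in this order had separate ranges. In miR_CKO 1 the levels of Cacna2d1 and Cacna2d2 were nearly the same.

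**Figure D2:**
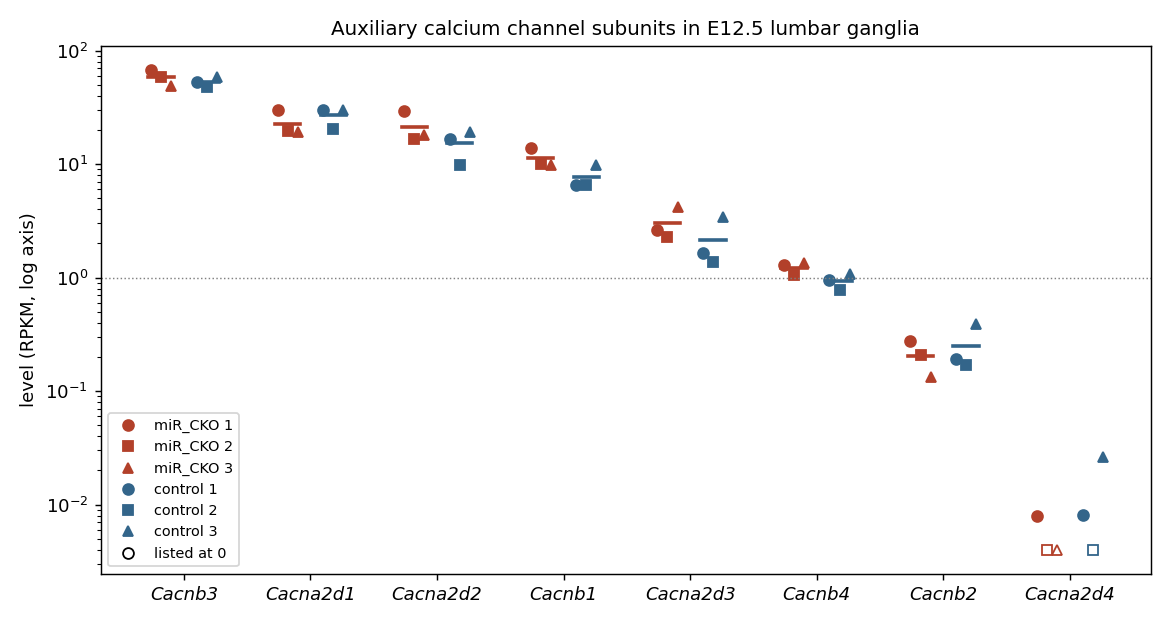
Level of each subunit gene in RPKM on a log axis, with miR_CKO libraries to the left of control libraries for each gene; bars are group means (not drawn for Cacna2d4), open symbols mark values listed at 0, and the dotted line is 1 RPKM. Cacnb3 lies between 47.3 and 67.5 RPKM and Cacna2d4 at 0.0263 RPKM or less, and the groups overlap for all 8 genes.

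No tested auxiliary subunit passed the threshold after adjustment over all genes. Of the 8 genes, 6 passed the filter of 1 RPKM or more in at least 3 libraries, and 0 of these 6 had a Benjamini-Hochberg adjusted p under 0.05 in limma's linear model of log2(RPKM + 1) across 13118 genes, where 8 genes (0.061%) did. At an unadjusted p under 0.05 there was 1 of 6, against 5.16% of all genes tested. The groups separated without overlap for 0 of the 8 genes, against 10.9% of all genes tested. The log2 change was above 0 for 5 of the 6 and below 0 for Cacna2d1, with a median of 0.29, while over all tested genes the median was -0.024 and 40.4% were above 0. This is a description only, since Cacnb4 reached 1 RPKM in all 3 miR_CKO libraries and in 1 control and so entered through the group where it was higher. Without Cacnb4, 4 of 5 were above 0, with a median of 0.37.

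Cacnb1 had the smallest p. It averaged 11.3 ± 2.32 RPKM in miR_CKO and 7.65 ± 1.95 RPKM in control (SD, n = 3 each), and its log2 change was 0.51 (SE 0.19, 95% interval 0.066 to 0.96, limma unadjusted p = 0.0302, adjusted p = 0.855). Its interval excluded 0 only before adjustment over the genes tested. With a library left out the change ranged from 0.36 to 0.69. The limma unadjusted p of Cacnb1 was then 0.086 without miR_CKO 1, 0.094 without control 1 and 0.086 without control 2. It was 0.0431, 0.0327 and 0.00491 without miR_CKO 2, miR_CKO 3 and control 3.

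The 2 alpha2delta genes known as adult targets differed in sign. Cacna2d2 averaged 21.4 ± 7.11 RPKM in miR_CKO and 15.2 ± 4.91 RPKM in control (SD, n = 3 each), with 0.47 as the log2 change (SE 0.29, 95% interval -0.21 to 1.16, limma adjusted p = 1.00). Cacna2d1 averaged 22.7 ± 6.05 RPKM in miR_CKO and 26.9 ± 5.64 RPKM in control, a log2 change of -0.24 (SE 0.21, 95% interval -0.75 to 0.26). The interval of Cacna2d2 leaves room for a change of more than 1 log2 unit and for none. Single libraries moved both values: without miR_CKO 1 the change was 0.23 for Cacna2d2 and -0.44 for Cacna2d1, and without control 2, titled WT, it was 0.20 for Cacna2d2 and -0.42 for Cacna2d1. For Cacna2d1 it lay between -0.15 and -0.13 without any 1 of miR_CKO 2, miR_CKO 3, control 1 and control 3.

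The 95% intervals of the other tested subunits took in no change as well. Cacna2d3 had a log2 change of 0.37 (95% interval -0.28 to 1.02), which was 0.18 without miR_CKO 3, 0.19 without control 2 and 0.65 without control 3. Cacnb4 had a log2 change of 0.20 (-0.087 to 0.49). Cacnb3 had one of 0.13 (-0.18 to 0.45), and it was 0.022 without miR_CKO 1, 0.058 without control 2, 0.21 without control 3 and 0.26 without miR_CKO 3. The interval of Cacnb3 was narrow enough to leave out changes of 0.5 on this scale in either direction.

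Seed places are set beside the changes here as a description only, and their part in the changes was not tested. Cacna2d1 and Cacna2d2 have 4 places each and had changes of -0.24 and 0.47. Across all 136 tested genes with 4 places the median log2 change was 0.066, with 69.9% above 0. Cacnb1 had 2 places and a change of 0.51. The 935 tested genes with 2 places had a median of 0.021, with 58.2% above 0. For Cacnb4, with 7 places and a change of 0.20, there were only 8 such genes, with a median of 0.15 and 75% above 0. Cacna2d3 and Cacnb3, with no place, had changes of 0.37 and 0.13. The 7150 tested genes with no place had a median of -0.037, with 33.9% above 0. The 1117 tested genes with an 8mer, a kind held by Cacna2d2 and Cacnb4, had a median of 0.041, with 62.1% above 0. The genes behind these medians differ from the subunits in UTR length and level. Both Cacnb1 places lie in 1 of 4 coding transcripts, and all Cacna2d1 places but the first in 2 of 8. Which of these transcripts the ganglia held was not tested.

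**Figure D3:**
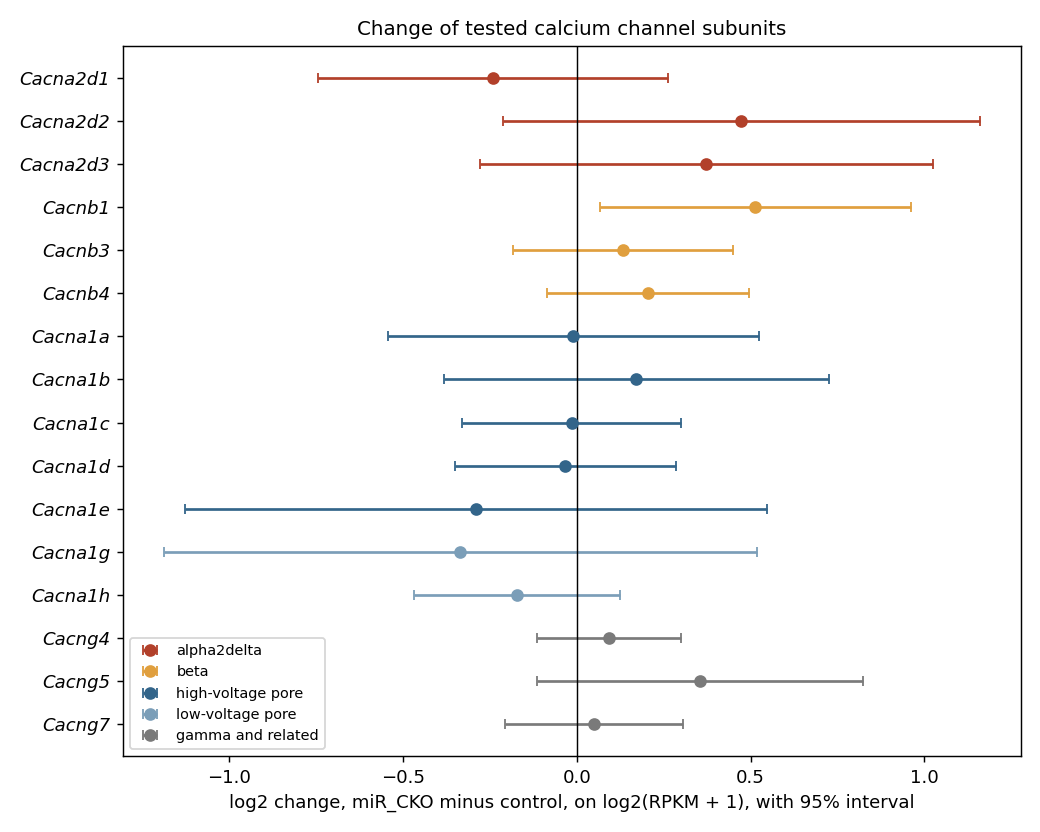
Log2 change of log2(RPKM + 1), miR_CKO minus control, with its 95% interval from limma, for the tested auxiliary subunits and the tested pore and gamma genes. Among the 16 genes shown the interval of Cacnb1, 0.066 to 0.96, alone excludes 0 before adjustment for the number of genes tested.

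Relative to each other, Cacna2d1 and Cacna2d2 did separate by genotype. The ratio of Cacna2d1 to Cacna2d2 was 1.00, 1.16 and 1.06 in miR_CKO 1 to 3, against 1.80, 2.10 and 1.57 in controls 1 to 3. The 3 miR_CKO libraries were thus all below the 3 controls, although each gene alone overlapped. On the log2 scale the ratio averaged 0.10 ± 0.11 in miR_CKO and 0.86 ± 0.21 in control (SD, n = 3 each), a difference of -0.75. With any single library left out this difference lay between -0.86 and -0.65. A ratio within a library does not depend on how that library was scaled, and it does not say which of the 2 genes moved.

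This ratio was singled out after the values were seen, from 15 pairs of tested subunits, and is given without a test. The groups were apart in 4 of the 15 pairs, and 3 of these 4 held Cacna2d1. The share over all pairs of tested genes was not worked out, so the count of 4 is a description only. The shares given next depend on the reference gene and cannot stand in for it. Relative to Cacna2d1, the ratio was higher in all miR_CKO libraries for Cacna2d2, Cacnb1 and Cacnb4, 3 of the 5 other subunits tested. Of all tested genes 3.97% had such a ratio. Cacnb4 passed the filter through the group where it was higher, so the count that includes it is a description only. Relative to Cacna2d2, 12.9% of all tested genes had a ratio to Cacna2d2 that was lower in all miR_CKO libraries, as Cacna2d1 did. Of all tested genes 43.3% had a lower ratio to Cacnb1, and 37.4% a lower ratio to Cacnb4, in all miR_CKO libraries than in any control. The ratio of Cacna2d1 to Cacnb1 was 2.13, 1.93 and 1.94 in miR_CKO 1 to 3, against 4.58, 3.15 and 3.06 in controls 1 to 3. The ratio of Cacna2d1 to Cacnb4 was 22.9, 18.6 and 14.3 in miR_CKO 1 to 3, against 31.8, 26.2 and 28.3 in controls 1 to 3. The remaining pair was Cacnb1 to Cacnb3, at 0.207, 0.172 and 0.202 in miR_CKO 1 to 3, against 0.125, 0.137 and 0.170 in controls 1 to 3. The nearest libraries of the 2 groups, miR_CKO 2 and control 3, were almost level. Of all tested genes, 0.961% had a ratio to Cacnb3 that was higher in all miR_CKO libraries. Seen from Cacnb1 the same separation was common, since it held for the 43.3% with a lower ratio to Cacnb1.

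**Figure D4:**
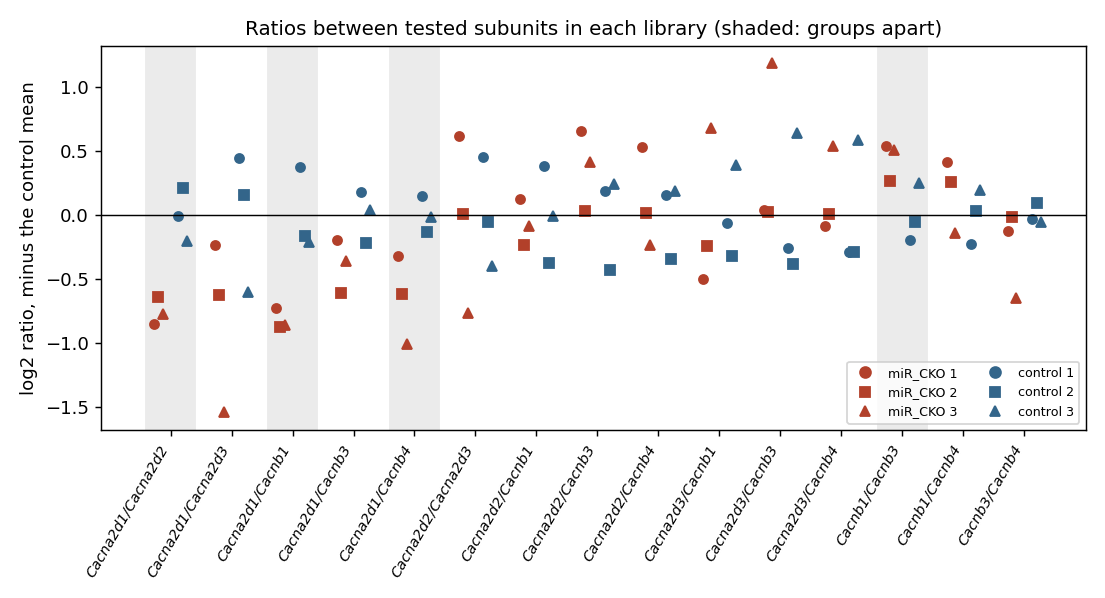
Log2 ratio between each pair of tested subunits in each library, with the control mean of that ratio set to 0; shading marks the pairs whose groups do not overlap. The Cacna2d1 to Cacna2d2 ratio lies between 1.00 and 1.16 in miR_CKO and between 1.57 and 2.10 in control before this centring.

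The same levels can be read as the make-up of each family. Cacna2d1 made up 48.3 ± 2.20% of the summed alpha2delta RPKM in miR_CKO and 61.3 ± 3.86% in control (SD, n = 3 each). Cacna2d2 made up 45.0 ± 2.44% in miR_CKO and 33.9 ± 2.76% in control. Cacna2d3 made up 6.73 ± 3.04% in miR_CKO and 4.76 ± 1.57% in control. The summed alpha2delta level itself was 61.9, 38.4 and 41.1 RPKM in miR_CKO 1 to 3, against 48.5, 31.5 and 52.9 RPKM in controls 1 to 3, with the groups overlapping. Relative to their means, the sums varied more within each group than the shares of Cacna2d1 and Cacna2d2 did, and less than the share of Cacna2d3.

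In the beta family Cacnb3 made up 82.1 ± 1.50% of the summed RPKM in miR_CKO and 85.8 ± 1.84% in control. Cacnb1 made up 15.9 ± 1.29% in miR_CKO and 12.3 ± 1.70% in control. Cacnb4 made up 1.76 ± 0.410% in miR_CKO and 1.51 ± 0.0743% in control, and Cacnb2 stayed under 0.6% in each library. Shares of a family are bound to each other, so a higher share of one gene is a lower share of the rest.

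**Figure D5:**
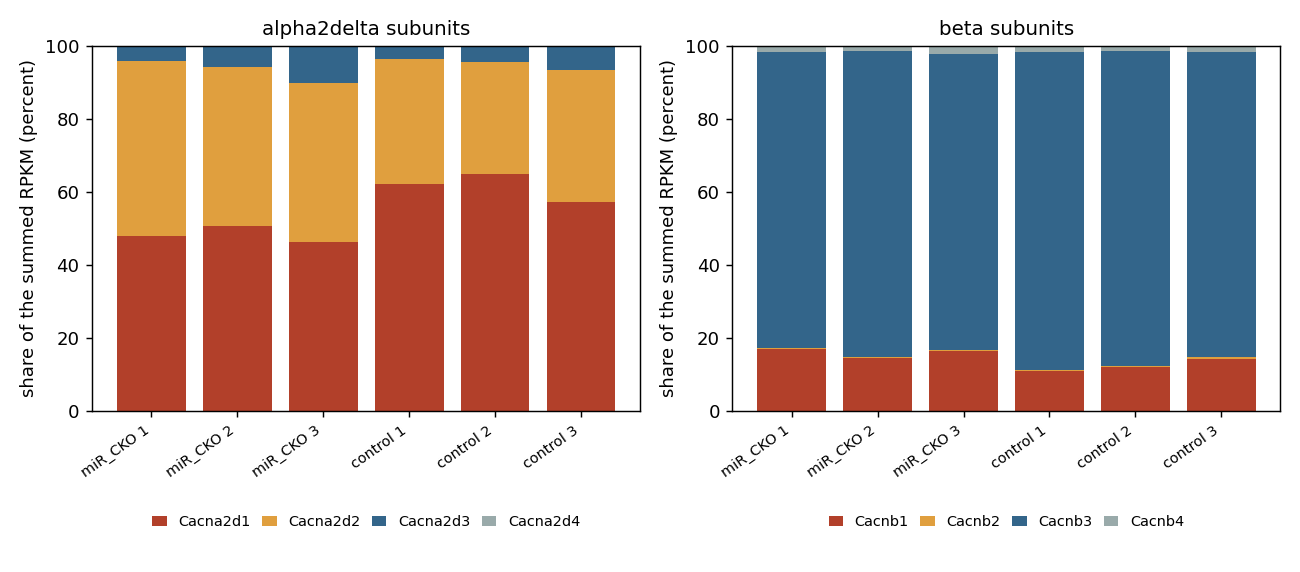
Share of each gene in the summed RPKM of its family, in percent, for miR_CKO 1 to 3 and controls 1 to 3. Cacna2d1 holds 46.3% to 50.6% of the alpha2delta sum in miR_CKO and 57.2% to 64.8% in control, and Cacnb3 holds over 81% of the beta sum in each library.

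The pore-forming partners did not pass the test either. Of 7 high-voltage pore genes 5 were tested, with 0 called and 1 above and 4 below 0 (median log2 change -0.015, against -0.024 for all tested genes). Cacna1b, the N-type pore, was at 18.4, 12.7 and 10.2 RPKM in miR_CKO 1 to 3, against 12.8, 8.93 and 14.2 RPKM in controls 1 to 3. Cacna1e, the R-type pore, was at 19.9, 9.78 and 7.67 RPKM in miR_CKO 1 to 3, against 16.9, 9.83 and 17.5 RPKM in controls 1 to 3. The same libraries were high for Cacna1e as for Cacna2d1. The L-type pore Cacna1d had a log2 change of -0.033, which ranged from -0.12 to -0.0080 with a library left out where it still passed the filter. Both tested low-voltage, T-type pores were below 0, with log2 changes of -0.33 for Cacna1g and -0.17 for Cacna1h, and 0 of 2 were called. With a library left out, Cacna1g ranged from -0.70 (without control 1) to -0.12 (without miR_CKO 1) and Cacna1h from -0.27 (without miR_CKO 1) to -0.053 (without miR_CKO 3), and with the muscle covariate Cacna1g was at 0.39. The N-type and R-type pores depended on single libraries as well: Cacna1b had a log2 change of 0.17, which was -0.043 without miR_CKO 1, and Cacna1e one of -0.29, which was -0.66 without miR_CKO 1 and -0.026 without miR_CKO 3.

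Of the 8 gamma and related genes 3 were tested and 0 called. Cacng5, Cacng4 and Cacng7, which encode proteins better known as partners of AMPA receptors, had log2 changes of 0.36, 0.092 and 0.049. Without miR_CKO 1 the change was 0.15 for Cacng5 and 0.026 for Cacng4, and without miR_CKO 3 it was -0.033 for Cacng7. Among the relatives and ligands of alpha2delta, 0 of 6 tested genes were called. Cachd1, an alpha2delta-like protein, had a change of -0.089, the endocytic receptor Lrp1 one of 0.19, and Thbs1, which encodes thrombospondin-1, one of -0.45. With a library left out, Cachd1 ranged from -0.18 to -0.031, Lrp1 from -0.012 to 0.33 and Thbs1 from -0.88 to 0.15. Thbs1 spread widely, from 1.65 to 9.03 RPKM in miR_CKO and from 3.56 to 12.9 RPKM in control. Among regulators that act on the beta subunit or the channel complex, 0 of 6 tested genes were called, with changes of -0.55 for the adaptor Stac, -0.23 for the scaffold Ahnak and 0.22 for Stac2. With a library left out, Stac ranged from -0.85 (without miR_CKO 1) to -0.33 (without control 3), Ahnak from -0.33 (without miR_CKO 1) to -0.13 (without miR_CKO 2), and Stac2 from 0.098 (without miR_CKO 1) to 0.35 (without control 3). Of the 10 genes of calcium-triggered release, all tested, 0 were called, and the calcium sensors Syt1 and Syt2 had changes of 0.26 and -0.26. Syt1 was at 0.066 without control 2, and Syt2 at -0.088 without miR_CKO 3 and -0.46 without miR_CKO 1.

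The genes whose levels ran most like each subunit over the 6 libraries were sought by the root mean square difference of log2(RPKM + 1) after centring each gene on its mean. For Cacna2d1 these were Fam63b (difference 0.038) and Camk2g (0.047), while the median over all tested genes was 0.33. Camk2g, which encodes a calcium/calmodulin-dependent kinase, was at 33.3, 22.7 and 21.6 RPKM in miR_CKO 1 to 3, against 33.5, 25.2 and 34.8 RPKM in controls 1 to 3, which is the split seen for Cacna2d1. For Cacna2d2 they were Sez6l2 (0.096) and Slitrk1 (0.11), against a median of 0.47. For Cacna2d3 they were Nova1 (0.13) and Lrrc4b (0.17), and for Cacnb1 the AMPA receptor gene Gria4 (0.083) and Tmem169 (0.088), against medians of 0.41 and 0.38. For Cacnb3 they were Fam134b (0.021) and Tmem246 (0.037), against a median of 0.22. For Cacnb4 they were 2 listings of Gm10408 (0.032 each), which may share reads, against a median of 0.19. The points share their 6 libraries, and the values describe likeness only.

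Other cell types varied between the libraries. The skeletal muscle list, 19 genes with none at 0 throughout, summed to 35.7 to 54.2 RPKM in miR_CKO and to 38.3 to 251 RPKM in control, with controls 2 and 3 high. The muscle pore Cacna1s was at 0.0961 RPKM or less in miR_CKO, against 0.0908, 0.480 and 0.415 RPKM in controls 1 to 3, and the muscle gamma subunit Cacng1 had 0.144 to 0.214 RPKM in miR_CKO, against 0.111, 0.594 and 0.556 RPKM in controls 1 to 3. Cacnb1 and Cacna2d1 also belong to the muscle channel. With the muscle list as a covariate the log2 change was 0.55 for Cacnb1, -0.50 for Cacna2d1, 0.18 for Cacna2d2, 0.53 for Cacna2d3 and 0.044 for Cacnb3, which moved that of Cacna2d1, Cacna2d2 and Cacnb3 by over 1.5 times. The 10 mesenchyme genes summed to 204 to 304 RPKM in miR_CKO and 234 to 429 RPKM in control. The 18 sensory neuron genes, all detected, summed to 5097, 4270 and 3355 RPKM in miR_CKO 1 to 3, against 4484, 3516 and 4387 RPKM in controls 1 to 3, with control 2 and miR_CKO 3 lowest. The 7 glial genes summed to 860 to 976 RPKM in miR_CKO and 818 to 1089 RPKM in control. The 6 endothelial genes summed to 66.7 to 98.6 RPKM in miR_CKO and 68.9 to 81.1 RPKM in control. The part of these differences in the subunit values was not tested. The muscle covariate cannot fully separate muscle from genotype, since all 11 tested muscle genes had a log2 change below 0 (median -1.64). In whole ganglia fewer neurons and less RNA per neuron cannot be told apart.

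The targeted loci gave no check of the labels, since Mir183, Mir96 and Mir182 were listed at 0 in all 6 libraries and polyadenylated libraries hold few microRNA precursors. Wnt1, whose regulatory sequence drives the Cre, was at 0.319 to 4.56 RPKM in miR_CKO and 0.147 to 1.38 RPKM in control. The library miR_CKO 1, the highest for Cacna2d2, Cacnb1 and Cacnb3, also stood apart by Xist, the noncoding RNA that coats a silenced X chromosome, at 96.0 RPKM there and at 0.0890 RPKM or less in the other 5. The Y-linked gene Ddx3y was at 0.0098 RPKM in miR_CKO 1, against 11.3 to 13.6 RPKM in the other 5. By these genes miR_CKO 1 was female and the other 5 were male, so sex was not balanced between the groups. Each fit without miR_CKO 1 also left out the only female library, and the part of sex in the subunit values was not tested. The Cacna2d1 to Cacna2d2 ratio was 1.00 in miR_CKO 1, against 1.16 in miR_CKO 2 and 1.06 in miR_CKO 3. The part of sex in this ratio was not tested either. Estimated from the deposited values, each library held 20.0 to 24.0 M reads.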

How the data were processed

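The submitters' processing notes name Bowtie and mm10, and the sources used here give neither counting tool nor annotation. The table the authors deposited has a column for each library and no named unit. Its values, given by the authors with a decimal comma, are on another scale than counts and were read as RPKM (FPKM cannot be told apart), since each gene had a smallest step of which its values were whole multiples, and longer transcripts had smaller steps (Spearman rho -0.905 across 1928 single-transcript genes, not independent replicates). Dividing by the step gave whole reads, within 0.01 read, for 92.5% of the 13118 genes tested and for all 8 subunit genes, and depth was estimated.

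Genes with 1 RPKM or more in at least 3 libraries were compared on log2(RPKM + 1) with limma 3.58.1 in R 4.3.3 (trend and robust settings, group as the only term), with Benjamini-Hochberg adjustment over 13118 genes and a threshold of 0.05; fold changes on this scale understate the change of low genes. The test was tried on simulated data first. No pair of libraries within a group agreed within counting noise. Each was counted as a replicate, though this check cannot show that the libraries came from separate embryos. Named genes were the 8 subunits and the 2 genes most like each tested subunit. Up to 3 genes of smallest p were named from each list of channel partners, along with Mir183, Mir96, Mir182 and Wnt1. Xist, Ddx3y, Th, Dbh, Mnx1, Lhx5, Pax2, Pax6, Olig2 and the untested muscle genes Cacna1s and Cacng1 were named after their values were seen. Some items of the lists are not reported here. Members and lists were chosen with earlier results of these data known. UTRs came from GENCODE M21, and 18219 genes of the table had one. Alternatives were other pseudocounts, filters, scalings, limma settings, a muscle covariate, a replicate block and each library left out. SciPy 1.17.1, NumPy 2.4.6, pandas 2.3.3 and matplotlib 3.10.9 were used in Python 3.11.15.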

Additional observations from a re-analysis of the deposited data

How the results depend on the processing

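Each of the 6 tested subunits kept its sign and stayed uncalled under all 15 alternatives, 90 values in all, and 0 subunits were called under any; the lowest limma adjusted p was 0.55, for Cacna2d3 with median centring and a replicate block together, a fit added after the data were seen. The count of genes called over the whole table, 8 of 13118, was 2 with median centring and 0 with upper quartile scaling, without limma's trend and robust settings, with the muscle covariate, with the replicate block, and with median centring and the block together; it ranged from 0 to 2 with a library left out. At an unadjusted p under 0.05 these fits had 440 to 1023 genes. The cause was not tested. Same-numbered libraries did not pair (correlations of deviations 0.36, 0.33 and -0.22), so the block is given only here: it moved the unadjusted p of Cacna2d2 to 0.049 and of Cacna2d3 to 0.0179, with adjusted p of 0.77 and 0.63 in limma.

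Of 17 other named genes, 6 changed sign under some alternative, in 10 of 252 values. With the muscle covariate the log2 change was -0.072 for Cacna1b, 0.39 for Cacna1g, 0.058 for Cachd1 and 0.53 for Thbs1. With a library left out it ranged from -0.043 to 0.35 for Cacna1b, from -0.033 to 0.13 for Cacng7, from -0.012 to 0.33 for Lrp1 and from -0.88 to 0.15 for Thbs1. No scaling moved the median of all genes by over 0.1. With 3 libraries a group, the 95% intervals of the tested subunits spanned from 0.58 to 1.37 log2 units, and Cacna2d4 and Cacnb2 were limited by reads.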
